A study of Mus musculus with 34 samples.

Results

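Nuclear genes for subunits of the oxidative phosphorylation complexes were followed in hematopoietic stem cells (HSCs) with and without the m6A reader Ythdf2, in young and in aged mice. The members were the rows of the count table whose symbols begin with Nduf and a, b, c, s or v and a digit, are Sdha to Sdhd, or begin with Uqcr, with Cox and a digit from 4 to 8, or with Atp5. This gave 80 of 13108 genes, of which 36 belong by name to complex I, 4 to complex II, 8 to complex III, 15 to complex IV and 17 to complex V. The HSCs were LSK (lineage-, Sca-1+, c-Kit+) CD48-CD150+ bone marrow cells of C57BL/6 mice, sorted as samples of 100 cells and sequenced by SMART-Seq2, a protocol that copies whole transcripts from small inputs. The young mice, aged 8 to 12 wk, were 4 Ythdf2CTL and 4 Ythdf2CKO animals. The aged mice, aged 1 yr, were 4 Ythdf2CTL and 5 Ythdf2CKO animals. Every mouse carried floxed Ythdf2 alleles, in which GFP is joined to the start of the gene, and Ythdf2CKO mice also carried Vav-iCre, which deletes the floxed exon in the whole hematopoietic lineage and not in HSCs alone. A mouse gave up to 2 libraries, which were added, so that the mouse is the replicate unless libraries are named.

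The respiratory chain sits in the inner mitochondrial membrane. Complex I (NADH dehydrogenase) and complex II (succinate dehydrogenase) pass electrons to ubiquinone, complex III (cytochrome bc1) passes them to cytochrome c, complex IV (cytochrome c oxidase) passes them to oxygen, and complex V (ATP synthase) uses the resulting proton gradient to make ATP. Apart from complex II, each complex also holds subunits encoded by mitochondrial DNA, which were not analysed here. Quiescent HSCs are known for relying less on this pathway than their cycling progeny do.

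Members lay on 19 chromosomes, and most of their transcripts were short. The spliced transcripts of the 78 tested members measured between 366 and 3171 nt, with a median of 738.5 nt against 2750 nt in the other tested genes, and 58 of them were under 1200 nt. These lengths, and all gene positions below, are of GENCODE vM21 on GRCm38. Many members also share sequence with transcripts of other genes. Of the 78 tested members, 19 shared over 20% of their 50-base stretches in this way. The split of reads between genes is uncertain for those. The promoter of 65 members was matched in RefSeq (GRCm38.p6). Within 250 bases before to 50 bases after the start, on either strand, the NRF1 core GCATGCG was present in 11 of the 65 (16.9%) and in 7.09% of the 10485 promoters matched over all rows. The YY1 core AAGATGG was present in 11 (16.9%) against 8.34% of all, and the ETS motif CCGGAAG in 16 (24.6%) against 19.8%. NRF1, YY1 and the ETS factor GABP are known regulators of respiratory genes, and a match of letters is not a binding site. The 150 bases before the RefSeq start are shown for 3 members that fell with age in both genotypes below, Ndufc2, Cox7b and Atp5c1, for Sdhd, which fell in Ythdf2CTL mice and holds an ETS motif there, and for Ndufa11, an accessory complex I subunit which was called in neither genotype (-0.40 and -0.21) and holds an NRF1 core. Only stretches that lie outside the gene by GENCODE as well were taken, since the starts of the annotations differ for many members, such as Ndufs4. Capitals mark the ETS motif of Sdhd, read on the other strand, and the NRF1 core of Ndufa11, whose matches on the 2 strands overlap.
Ndufc2 (chr7:97399853-97400002, plus strand): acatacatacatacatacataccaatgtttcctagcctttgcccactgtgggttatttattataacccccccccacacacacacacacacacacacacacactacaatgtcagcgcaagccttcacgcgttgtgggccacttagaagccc
Cox7b (chrX:106015550-106015699, plus strand): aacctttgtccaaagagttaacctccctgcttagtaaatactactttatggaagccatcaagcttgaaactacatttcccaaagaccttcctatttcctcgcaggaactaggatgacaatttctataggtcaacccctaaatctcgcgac
Atp5c1 (chr2:10080511-10080660, minus strand): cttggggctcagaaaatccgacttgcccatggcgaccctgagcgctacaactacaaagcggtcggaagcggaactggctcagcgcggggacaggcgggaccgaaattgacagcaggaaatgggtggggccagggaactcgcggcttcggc
Sdhd (chr9:50603850-50603999, minus strand): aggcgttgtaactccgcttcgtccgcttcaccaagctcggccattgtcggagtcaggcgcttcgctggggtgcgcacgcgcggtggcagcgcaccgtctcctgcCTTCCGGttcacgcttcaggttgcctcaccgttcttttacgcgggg
Ndufa11 (chr17:56717612-56717761, plus strand): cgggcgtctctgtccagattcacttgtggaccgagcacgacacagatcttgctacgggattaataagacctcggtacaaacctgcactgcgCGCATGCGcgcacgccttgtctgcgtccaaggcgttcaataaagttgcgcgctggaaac

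Total counts were between 1859784 and 7784627 per library and between 2218618 and 10125624 per mouse, so that 3 counts correspond to between 0.296 and 1.35 CPM, a floor that covers counting error only. CPM here are counts scaled to a common library size, after TMM scaling over all 17 mice. Ythdf2, the targeted gene, stood between 92.9 and 124 CPM in young Ythdf2CTL and between 50.6 and 60.0 CPM in young Ythdf2CKO mice. Among aged mice, 1 animal of each label went against it. In aged Ythdf2CKO mouse 121, as labelled, it reached 186 CPM, against between 72.6 and 87.7 CPM in the other 4 mice of that label. In aged Ythdf2CTL mouse 124, as labelled, it reached 71.3 CPM, against between 142 and 178 CPM in the other 3. The counts of members called in comparisons that include these animals are therefore also given without both. In the sample descriptions, the library names of all young samples share 1 code and those of all aged samples another. The labels do not say what the code stands for, and age and whatever it marks cannot be told apart in any comparison of ages. Y-linked genes summed to over 10 CPM in 3 young Ythdf2CTL mice and in 1 mouse of each other group.

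Nearly all members were detected well above the floor. Levels per kilobase, the mean CPM over the 17 mice divided by spliced length, ranged from 1613 CPM per kb for Uqcr11, a small complex III subunit, to 0.028 for Cox6a2. By name, the highest member of complex I was Ndufa4, at 1210 CPM per kb, a small subunit that is found in complex IV. In complex II Sdhd, a membrane anchor, was highest at 415, in complex IV Cox4i1 at 1275 and in complex V Atp5mpl, a small proteolipid, at 926. Leaving aside the low isoforms below, the lowest in complexes I, II, III and V were Ndufs1, the largest complex I subunit, at 50.3, the other membrane anchor of complex II, Sdhc, at 75.5, the complex III core protein Uqcrc2 at 98.7 and Atp5s, a coupling factor, at 53.9 CPM per kb.

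The tissue isoforms separated by level. Cox4i1, the general form of the regulatory complex IV subunit 4, stood at 1275 CPM per kb, and Cox4i2, the form known from lung, at 8.17. Cox6a1 stood at 995 CPM per kb, whereas the heart and muscle form Cox6a2 had 2 counts over the 17 mice. Cox7a2 stood at 523 and its relative Cox7a2l at 117 CPM per kb, against 3.24 for the muscle form Cox7a1. Cox6b1 stood at 992 and Cox6b2, known as a testis form, at 126 CPM per kb, so that the latter was present in HSCs at a level above that of 14 other members. The 3 genes for the c subunit of ATP synthase, which carry different import sequences but the same mature protein, stood at 588 (Atp5g3), 567 (Atp5g1) and 227 CPM per kb (Atp5g2), and all of the sampled 50-base stretches of Atp5g2 recur in other genes. Ndufb4c, an intronless gene of 1 exon whose stretches all recur elsewhere, had 40 counts over the 17 mice.

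Summed over all members, the level was 31640, 28108, 31124 and 38753 CPM in young Ythdf2CTL mice and 26246, 35264, 34114 and 27256 CPM in young Ythdf2CKO mice. It was 21754, 17540, 22872 and 27830 CPM in aged Ythdf2CTL mice 65, 99, 114 and 124, and 22360, 24678, 21035, 21317 and 24825 CPM in aged Ythdf2CKO mice 78, 81, 94, 121 and 122. The genotypes overlapped at both ages, and every aged mouse but 124 was below every young mouse of either genotype. The means were 32406 ± 4509 (SD, n = 4) and 30720 ± 4625 (SD, n = 4) CPM in young and 22499 ± 4231 (SD, n = 4) and 22843 ± 1812 (SD, n = 5) CPM in aged Ythdf2CTL and Ythdf2CKO mice. In proportion, the sum of complex IV differed most between ages, from 5967 ± 837 to 3569 ± 942 CPM in Ythdf2CTL mice (SD, n = 4 each), and complex III and complex II least, from 3576 ± 523 to 2938 ± 522 and from 1750 ± 178 to 1442 ± 108 CPM. In bulk samples of sorted cells, fewer cells of a type and less RNA per cell cannot be told apart.

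**Figure D1:**
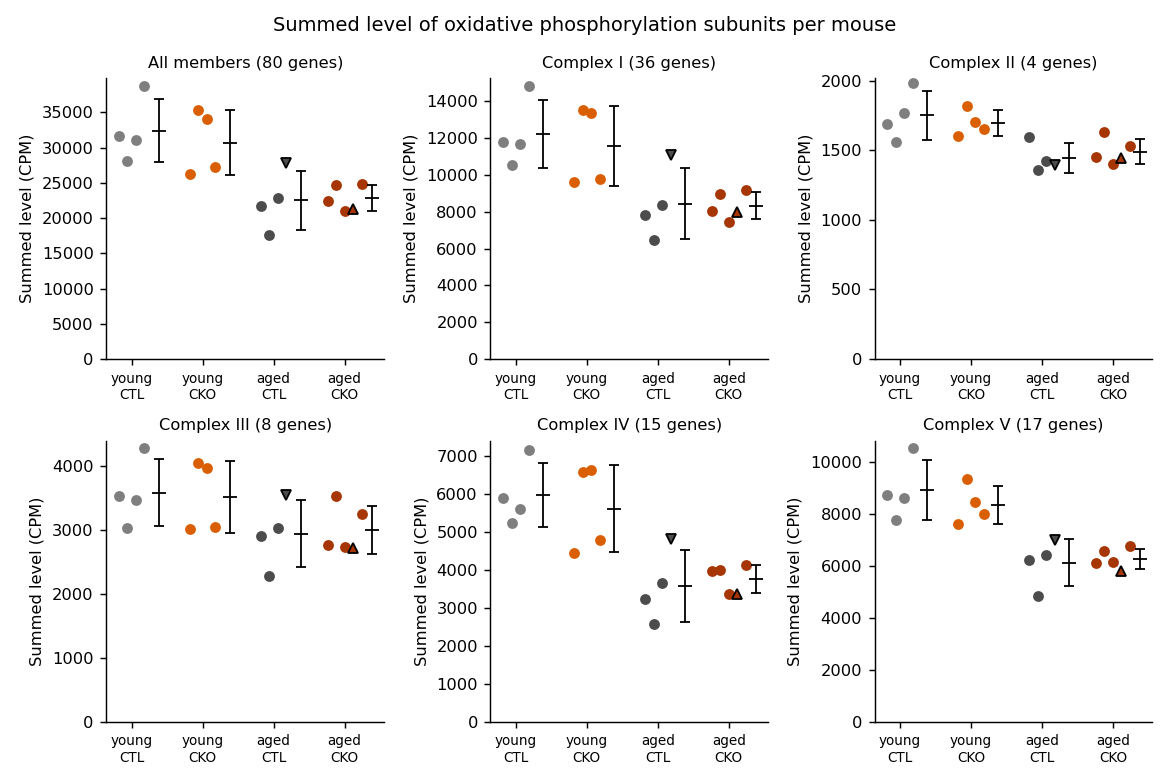
Summed level in CPM of the members of each complex, 1 point per mouse, with the mean and SD at the right of each group; the triangle that points up is the mouse labelled aged Ythdf2CKO 121 and the one that points down the mouse labelled aged Ythdf2CTL 124. In complexes I, II, IV and V the aged groups lie mostly below the young groups, and in no complex do the genotypes separate.

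Within each Ythdf2CTL group, most members shared the mouse in which they were highest and the mouse in which they were lowest. Of the 76 members with a mean of at least 50 counts, 70 were highest among young Ythdf2CTL animals in mouse 4 and 57 lowest in mouse 2. Among aged Ythdf2CTL animals, 56 were highest in the mouse labelled 124 and 62 lowest in mouse 99, which had the fewest counts of all mice. Other genes with transcripts under 1200 nt also held their largest shares of counts in mice 4 (24.3%) and 124 (20.2%) of these groups. Their smallest shares were in mice 2 (21.9%) and 99 (14.7%). In young Ythdf2CKO animals, 36 members were highest in mouse 3 and 34 in mouse 2. In aged ones, 34 were highest in mouse 122 and 29 in mouse 81. No such tally was made over all genes. The summed level of genes of the cell cycle was 5092 CPM in mouse 124 and 3799 CPM in mouse 99, against 2399 and 3786 CPM in the other aged Ythdf2CTL mice, and 5111 CPM in young mouse 4 and 4949 CPM in young mouse 2, against 4066 and 4237 CPM in the other young Ythdf2CTL mice. In young Ythdf2CKO mouse 3, highest of its group in 36 members, it was 2754 CPM, the lowest of that group. Their part in the result was not tested. The libraries A and B of a mouse differed in their summed member level by between 0.02 and 0.54 on the log2 scale, with the largest gap in young Ythdf2CTL mouse 4.

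The first question was whether loss of Ythdf2 changed these genes in young HSCs. No change passed the test. None of the 77 tested members passed edgeR's quasi-likelihood test at a Benjamini-Hochberg adjusted p under 0.05, where 0.174% of the 11526 genes tested did, and none had an unadjusted p under 0.05. DESeq2, limma and the likelihood ratio tests of edgeR, over mice and over libraries, called 0 members as well. The groups overlapped for all 77 members, against 4.72% of all genes without overlap. Of the members, 57 had negative and 20 positive log2 fold changes, with a median of -0.07 against -0.00 over all genes. The medians were -0.06 in complex I, -0.02 in complex II, -0.07 in complex III, -0.08 in complex IV and -0.11 in complex V. The median standard error of a member was 0.16 on the log2 scale, and 75 of 77 members lay within 0.3 of zero. The exceptions were Cox4i2, at -0.67 ± 0.50 (SE), and Ndufb2, an accessory subunit of complex I, at -0.30 ± 0.16 (SE), which also had the smallest p (0.0744, adjusted p = 0.755 by edgeR). The direction was not stable between libraries: the median of the members was -0.26 in the A libraries and 0.13 in the B libraries. With a covariate for Y-linked reads it was -0.25, and 15 members were lower at an unadjusted p under 0.05, with 0 members called.

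In aged HSCs the genotypes did not separate either. None of 78 members was called by the quasi-likelihood test of edgeR, and neither was any of the 11961 genes (0%). DESeq2, limma and the likelihood ratio tests called 0 members. The groups overlapped for every member, against 3.49% of all genes without overlap, and the median log2 fold change was 0.04 against -0.00 over all genes, with 44 members positive and 34 negative. Ndufv1, which holds the flavin and NADH site of complex I, was the member with an unadjusted p under 0.05. It stood at 218, 172, 280 and 226 CPM in the 4 aged Ythdf2CTL mice and at 257, 307, 286, 283 and 292 CPM in the 5 aged Ythdf2CKO mice. Mouse 114 of the controls was within the range of the Ythdf2CKO mice, and the log2 fold change was 0.36 ± 0.16 (SE), with p = 0.0455 and adjusted p = 0.487 by edgeR. In young mice the same gene differed by 0.06 ± 0.15 (SE). In complex III the smallest p was that of Uqcrh, at -0.31 ± 0.20 (SE, adjusted p = 0.64 by edgeR). Cox4i2 again had the most negative value, -0.93 ± 0.70 (SE), between 1.15 and 10.4 CPM in all aged mice. Without the mice labelled 121 and 124, 0 members were called and 4 were higher at an unadjusted p under 0.05, with a median of 0.19, while 40 genes of the whole table were then called.

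**Figure D2:**
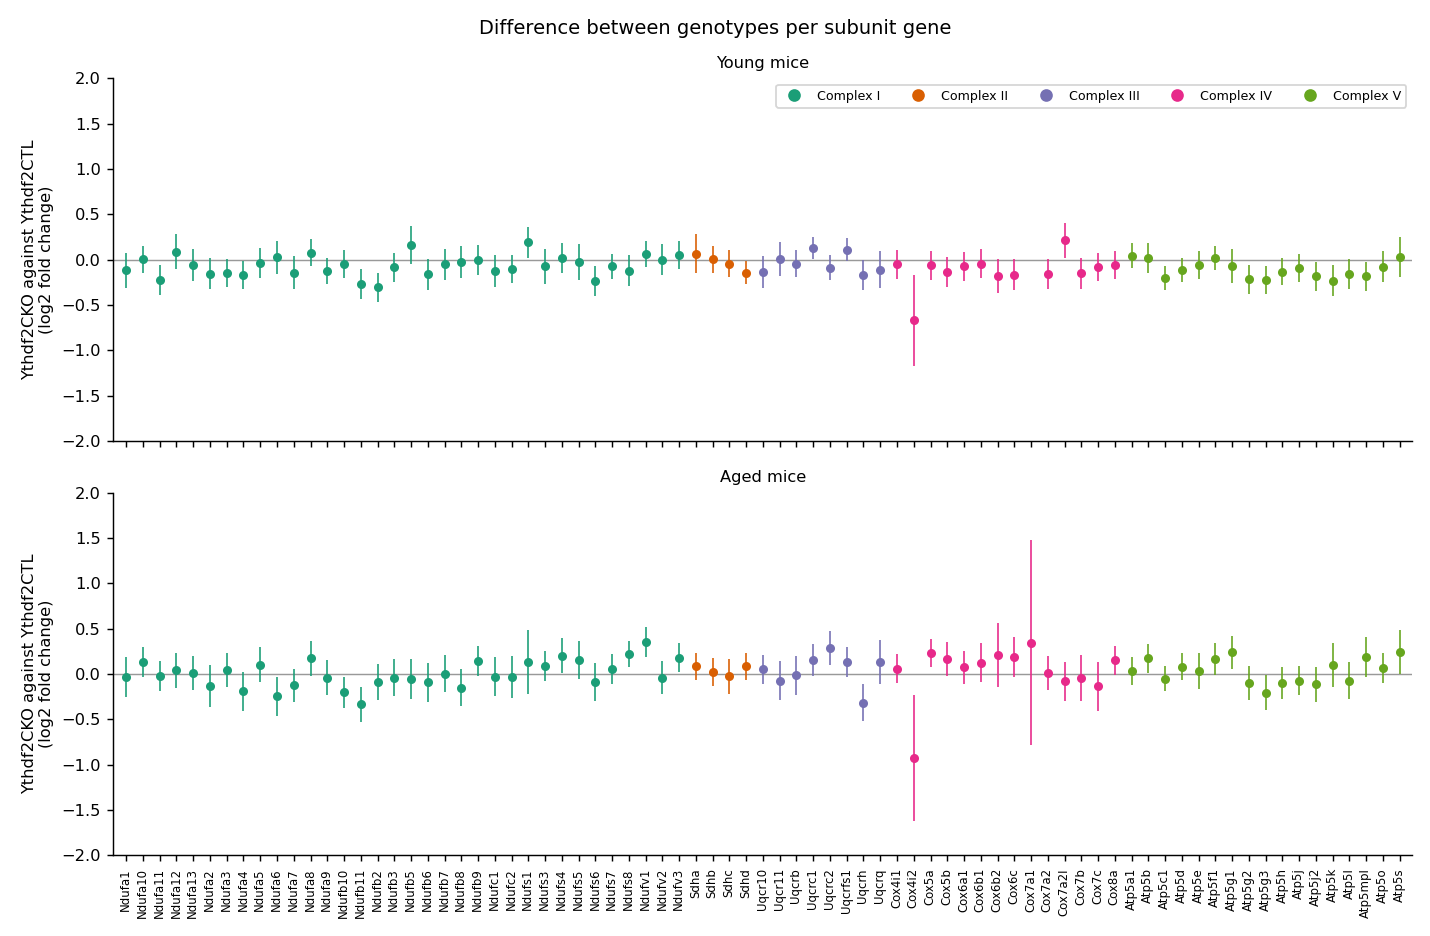
Log2 fold change of Ythdf2CKO against Ythdf2CTL for tested members, with bars of 1 standard error, in young mice (top) and aged mice (bottom), coloured by complex. Values scatter around zero at both ages, between -0.67 and 0.21 in young and between -0.93 and 0.36 in aged mice, with the widest bars at the low isoforms Cox4i2 and Cox7a1.

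Whether the genotype difference itself changed with age was tested over all 17 mice. None of 78 members was called by edgeR, with 0% of 12352 genes called and 0 members at an unadjusted p under 0.05. DESeq2, limma and the likelihood ratio tests called 0 members. The interaction was positive in 62 members, with a median of 0.10 and a median standard error of 0.27. The median was 0.24 in the A libraries and -0.27 in the B libraries, and 0.25 with a covariate for Y-linked reads. Without the mice labelled 121 and 124 it was 0.25, with 0 members called, 3 at an unadjusted p under 0.05 and 15 genes of the table called, 1 higher and 14 lower.

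The second axis of the design is age. In Ythdf2CTL mice 44 of 78 members were lower in aged HSCs and 0 were higher by edgeR, where 8.07% of 12352 genes were lower and 6.70% higher. In Ythdf2CKO mice 39 of 78 were lower and 0 higher, where 9.34% were lower and 7.21% higher. Groups did not overlap, with aged mice lower, for 35 members in Ythdf2CTL (10.1% of all genes) and for 38 in Ythdf2CKO mice (11.6% of all genes). The median log2 fold change of the members was -0.59 and -0.53, against 0.11 and 0.07 over all genes. With a covariate for Y-linked reads, 59 and 44 members were lower (8.6% and 9.6% of all genes) and 0 and 1 higher. The medians of the members were then -0.75 and -0.54. DESeq2 called 51 and 45 members lower (10.4% and 11.8% of all genes) and 0 and 1 higher. With limma, 45 and 46 members were lower (9.69% and 11.6% of all genes) and 1 and 2 higher. Library totals without TMM called 35 and 29 lower and 1 and 2 higher, with the median of all genes at 0.21 and 0.17 and that of the members at -0.49 and -0.43. Under that scaling, 1110 genes of the table were higher and 764 lower in aged Ythdf2CTL mice, against 828 and 997 with TMM, and 1126 and 870 against 891 and 1154 in Ythdf2CKO mice.

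Among genes in general, short transcripts were lower in aged mice more often than long ones, and most members are short. Their GC content, with a median of 51.8%, was close to that of the other genes (50.4%). The 1689 other genes with transcripts under 1200 nt held between 21.9% and 24.3% of the counts of young and between 14.7% and 20.2% of those of aged Ythdf2CTL mice, and between 19.6% and 25.8% and between 15.9% and 17.5% in Ythdf2CKO mice. The members' share of the counts, set against that of these genes, was 0.134 ± 0.00849 (SD, n = 4) in young and 0.130 ± 0.00624 (SD, n = 4) in aged Ythdf2CTL mice. It was 0.132 ± 0.00624 (SD, n = 4) and 0.139 ± 0.00669 (SD, n = 5) in Ythdf2CKO mice, and the groups overlapped. In classes of under 600 nt and from 600, 800, 1200 and 2000 nt, 20.5%, 25.2%, 24.1%, 11.5% and 3.88% of the other genes were lower in aged Ythdf2CTL mice, and 23.4%, 29.2%, 25.4%, 12.3% and 5.18% in aged Ythdf2CKO mice. Of the members, 16 of 26 (61.5%) were lower under 600 nt, 62.5% from 600 nt, 56.2% from 800 nt and 9 of 15 (60%) from 1200 nt up to 2000 nt, against 0 of 5 in the longest class. The shares of members in Ythdf2CKO mice were 46.2%, 68.8%, 62.5%, 40% and 0%.

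The share lower also differed with GC content. Among transcripts under 1200 nt with a mean of at least 100 CPM, 9 of 9 members with under 48% GC were lower in aged Ythdf2CTL mice, 15 of 22 between 48% and 54%, and 8 of 22 with more. Of the other genes in these classes, 88 of 118 (74.6%), 100 of 202 (49.5%) and 32 of 210 (15.2%) were lower. In Ythdf2CKO mice the members counted 7 of 9, 17 of 22 and 7 of 22, and the other genes 80.5%, 54.5% and 16.7%. Members were thus lower more often than other genes in all but the lowest GC class of Ythdf2CKO mice, where they were lower less often, and whether these shares differ was not tested. When each mouse's trend of expression on length and GC was removed before the test, an alternative chosen after seeing the data which takes out such shifts by construction, 2 members were called lower in Ythdf2CTL mice, Ndufs4 and Cox6c (-0.60, adjusted p = 0.0322 by edgeR), and 0 in Ythdf2CKO mice, with medians of -0.14 and -0.12. Of all genes 1.14% and 1.72% were then lower. The members at an unadjusted p under 0.05 were then 21 and 14 lower, and 2 and 3 higher. Across genes, Spearman's rho between the Ythdf2CTL log2 fold change and length was 0.30 over 78 members and 0.34 over 12242 other genes, and with GC content 0.50 and 0.34.

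**Figure D3:**
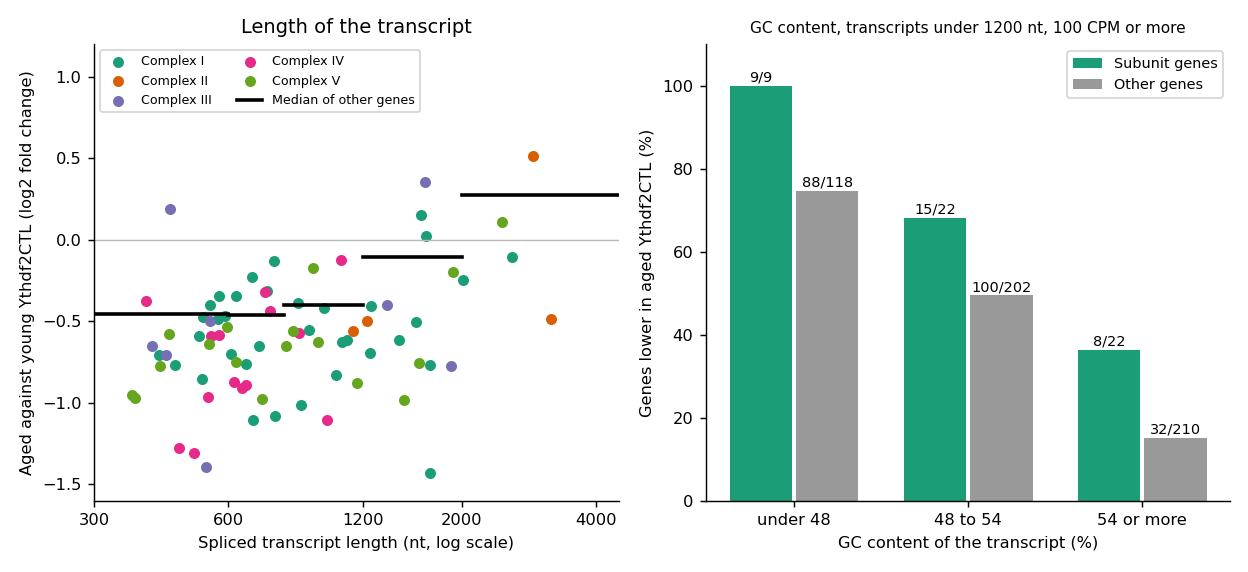
Left, log2 fold change of aged against young Ythdf2CTL mice for each member by spliced length (log axis), with the median of other genes in 5 length classes as black bars. Right, percent of members and of other genes lower in aged Ythdf2CTL mice by GC content, with counts above the bars, for transcripts under 1200 nt with at least 100 CPM; both fall from the lowest to the highest GC class.

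Complex I held the member with the largest fall in Ythdf2CTL mice, which in Ythdf2CKO mice was Uqcrb of complex III. Ndufs4, an accessory subunit of the electron input module (chr13:114287795-114388258), stood at 246, 233, 196 and 265 CPM in young and at 73.0, 68.1, 101 and 105 CPM in aged Ythdf2CTL mice. In Ythdf2CKO mice it stood at 202, 255, 302 and 187 CPM and at 120, 92.8, 86.7, 87.7 and 108 CPM. Every aged mouse was below every young mouse, and the log2 fold changes were -1.43 ± 0.19 (SE, adjusted p = 0.000256) and -1.25 ± 0.18 (SE, adjusted p = 0.000188) by edgeR. Its transcript of 1698 nt is not short but has 43.1% GC, and Ndufs4 stayed called in all 23 alternatives in Ythdf2CTL mice, the correction for length and GC included, at -0.76. In Ythdf2CKO mice it stayed called in 23 of 24, and lost the call under that correction (-0.65, adjusted p = 0.0525). Of the 35 tested complex I members, 16 were lower in Ythdf2CTL and 18 in Ythdf2CKO mice. The accessory subunits Ndufb3 (-1.08 and -1.05), Ndufc2 (-1.10 and -1.04) and Ndufa5 (-1.01 and -0.88) followed.

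The catalytic core of complex I was split. The core subunits Ndufs3 (-0.83 and -0.67, adjusted p = 0.00562 and 0.0107 by edgeR) and Ndufv2 (-0.77 and -0.82, adjusted p = 0.013 and 0.00509) were lower in both genotypes. Ndufs1, Ndufs7, Ndufs8 and Ndufv1, also of the core, were called in neither genotype. Their values were between -0.42 and 0.02 in Ythdf2CTL and between -0.16 and 0.31 in Ythdf2CKO mice. Ndufs1 was unusually spread among aged Ythdf2CTL mice, from 33.7 CPM in the mouse labelled 124 to 174 CPM in mouse 65.

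Complex II, which has no mitochondrially encoded subunit, held members on both sides. Sdha, the flavoprotein that oxidizes succinate (chr13:74322254-74350280), stood at 292, 325, 341 and 302 CPM in young and at 479, 488, 456 and 363 CPM in aged Ythdf2CTL mice. In Ythdf2CKO mice it stood at 430, 319, 170 and 399 CPM and at 447, 465, 473, 514 and 462 CPM. The aged mice were above the young ones in both genotypes without overlap, but the log2 fold changes of 0.51 ± 0.20 (SE) and 0.53 ± 0.19 (SE) did not pass the test (adjusted p = 0.0874 and 0.0607 by edgeR). Its transcript, of 2900 nt, is the second longest of the tested members. The iron-sulfur subunit Sdhb was lower in both genotypes, at -0.56 and -0.54 (adjusted p = 0.0247 and 0.0185), and the anchor Sdhd in Ythdf2CTL mice (-0.50, adjusted p = 0.0224), where Ythdf2CKO mice had -0.27. Sdhd lost its call in 4 of 23 alternatives, at -0.03 with length and GC corrected for (adjusted p = 0.928 by edgeR), and Sdhb in Ythdf2CKO mice in 5 of 24. Sdhc, the longest tested member at 3171 nt, had -0.49 and -0.48 and was not called (adjusted p = 0.0701 and 0.0572).

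In complex III, Uqcrb, which helps to bind ubiquinone (chr13:66900617-66905378), fell about as far as Ndufs4. It stood at 586, 461, 546 and 675 CPM in young and at 224, 136, 232 and 265 CPM in aged Ythdf2CTL mice. In Ythdf2CKO mice it stood at 469, 613, 642 and 466 CPM and at 215, 213, 222, 136 and 266 CPM. No aged mouse reached the level of a young one, and the log2 fold changes were -1.40 ± 0.21 (SE, adjusted p = 0.000409) and -1.37 ± 0.19 (SE, adjusted p = 0.000188) by edgeR. Its transcript has 535 nt and 42.2% GC, and 43.4% of its stretches recur in 5 other genes. With length and GC corrected for, Uqcrb was not called (-0.44 and -0.45). Uqcrc1, a core protein (chr9:108936633-108949623), had positive values instead, 0.36 ± 0.16 (SE) and 0.37 ± 0.15 (SE), which did not pass the test (adjusted p = 0.127 and 0.0889). It stood at 654, 620, 687 and 816 CPM in young and at 1087, 800, 902 and 741 CPM in aged Ythdf2CTL mice, which overlapped, and at 723, 798, 767 and 746 CPM and at 825, 1271, 855, 953 and 983 CPM in Ythdf2CKO mice, which did not. The Rieske protein Uqcrfs1 had -0.40 and -0.38 and was not called. The core protein Uqcrc2 was lower in Ythdf2CTL mice (-0.78, with -0.41 in Ythdf2CKO mice), the hinge protein Uqcrh in Ythdf2CKO mice (-0.65, with -0.50 in Ythdf2CTL mice), and the small subunit Uqcr10 in both (-0.71 and -0.53). Uqcr11, the member with the highest level per kb, was called in neither (0.19 and 0.10). In all, 3 of 8 members were lower in each genotype.

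Complex IV had 10 of 14 members lower in Ythdf2CTL and 7 of 14 in Ythdf2CKO mice. Cox6c, a small subunit of the membrane part (chr15:35925886-35938246), stood at 545, 435, 547 and 662 CPM in young and at 172, 138, 240 and 330 CPM in aged Ythdf2CTL mice. In Ythdf2CKO mice it stood at 362, 595, 558 and 428 CPM and at 262, 252, 215, 233 and 278 CPM. The ages did not overlap in either genotype, and the log2 fold changes were -1.31 ± 0.22 (SE, adjusted p = 0.00112) and -0.96 ± 0.20 (SE, adjusted p = 0.00339) by edgeR. Cox7c (-0.96 and -1.03), Cox5a (-0.91 and -0.62) and, among the isoforms, Cox6b1 (-0.87 and -0.71), Cox6b2 (-1.27 and -0.90) and Cox7a2 (-0.89 and -0.72) were lower in both genotypes. Cox6a1 and Cox8a were lower in Ythdf2CTL mice, at -0.58 and -0.59, where Ythdf2CKO mice had -0.45 and -0.38. Cox4i1 was called in neither (-0.43 and -0.33), nor was Cox7a2l (-0.13 and -0.43), which is linked to the joining of complexes III and IV.

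Complex V had 13 of 17 members lower in Ythdf2CTL and 10 of 17 in Ythdf2CKO mice. Atp5c1, the central stalk of the catalytic head (chr2:10056016-10080510), stood at 860, 719, 841 and 975 CPM in young and at 481, 379, 496 and 478 CPM in aged Ythdf2CTL mice. In Ythdf2CKO mice it stood at 666, 819, 821 and 643 CPM and at 449, 418, 415, 428 and 490 CPM. The aged mice lay within a narrow range below all young mice, and the log2 fold changes were -0.88 ± 0.14 (SE, adjusted p = 0.000843) and -0.74 ± 0.13 (SE, adjusted p = 0.00118) by edgeR. The alpha and beta chains that sit around this stalk, Atp5a1 (0.11 and 0.10) and Atp5b (-0.20 and -0.05), were called in neither genotype. Of the c subunit genes, Atp5g3 was lower in both (-0.98 and -0.96), Atp5g2 in Ythdf2CTL mice (-0.58, with -0.46 in Ythdf2CKO mice), and Atp5g1 in neither (-0.54 and -0.23). Atp5f1, of the peripheral stalk (-0.76 and -0.62), and Atp5h (-0.75 and -0.73) were lower in both.

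**Figure D4:**
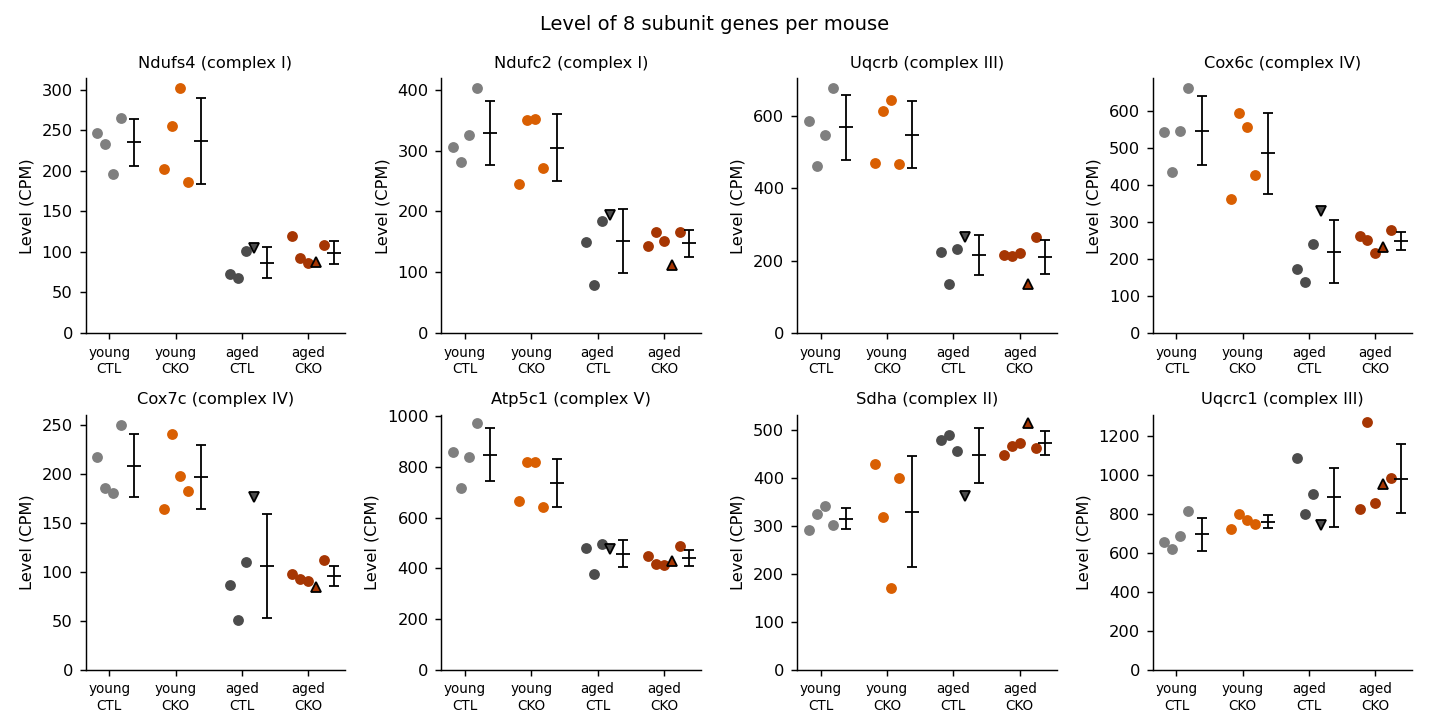
Level in CPM of 8 members, 1 point per mouse, with the mean and SD at the right of each group and triangles for the mice labelled 121 (up) and 124 (down). Ndufs4, Ndufc2, Uqcrb, Cox6c, Cox7c and Atp5c1 are lower in aged mice of both genotypes, and Sdha stands higher in aged mice without passing the test.

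The 19 members that share over 20% of their stretches with other genes counted 16 lower in Ythdf2CTL and 13 in Ythdf2CKO mice, the 25 members that share up to 20% 9 and 11, and the 34 members that share none 19 and 15. Of the 11 members with the NRF1 core 6 and 5 were lower, and of the 54 others with a promoter 33 and 31. With the ETS motif it was 12 and 10 of 16, against 27 and 26 of 49 without, and with the YY1 core 8 and 7 of 11, against 31 and 29 of 54.

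Both comparisons of ages gave similar values for the same gene, although they share no mouse. Of the 44 members lower in Ythdf2CTL mice, 33 (75%) were also lower in Ythdf2CKO mice, and of the 39 lower in Ythdf2CKO mice the same 33 (84.6%) were lower in Ythdf2CTL mice. Over all genes these shares were 67.9% and 58.7%. Pearson's r between the 2 sets of log2 fold changes was 0.91 over 78 members and 0.47 over 12352 genes, a correlation across genes that share length and base composition as well as the code in their library names. A member called in 1 genotype only is not shown to differ between genotypes, since the interaction called 0 members. The counts rested on a few animals: without young mouse 4, 19 members were lower in Ythdf2CTL mice (4.29% of all genes), and without aged mouse 99, 28 (5.3% of all genes). In Ythdf2CKO mice 16 were lower without young mouse 3 (5.67% of all genes), 17 without young mouse 2 (5.92%) and 25 without the mouse labelled 121 (7.73%). Without both 121 and 124, 59 and 40 members were lower (9.92% and 10.4% of all genes). In the A libraries 39 and 16 were lower (6.41% and 5.09% of all genes), and in the B libraries 1 and 27 (0.349% and 5.59% of all genes).

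**Figure D5:**
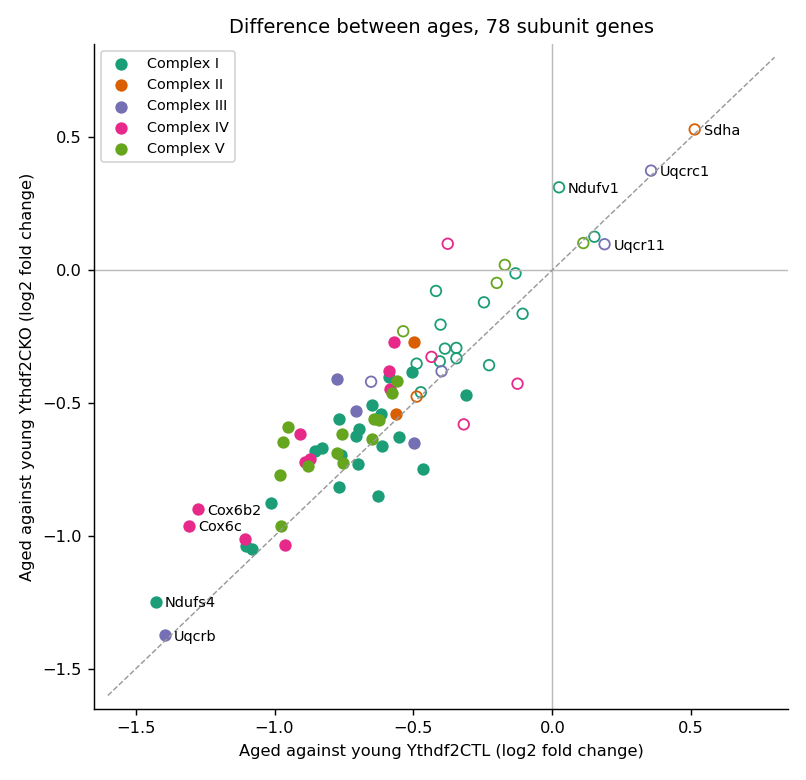
Log2 fold change of aged against young mice in Ythdf2CTL (x) and Ythdf2CKO (y) for 78 members, coloured by complex; filled points were called lower in at least 1 genotype, open points in neither, and the dashed line marks equal values. Most points lie at the lower left along the line, with Ndufs4 and Uqcrb farthest out and Sdha and Uqcrc1 at the upper right.

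Other genes of the pathway were taken from lists, to be read against the 8.07% and 9.34% of all genes that were lower. Of 17 complex I assembly factors, 6 were lower in aged Ythdf2CTL and 8 in aged Ythdf2CKO mice, such as Ndufaf4 (-0.87 and -1.14), with 0 higher. Of 25 complex IV assembly factors, 6 and 8 were lower, among them the copper chaperone Cox17 (-0.83 and -0.84), and the factor Sco2 was higher in Ythdf2CTL mice (0.56). Of 4 complex II factors, 2 and 2 were lower, and of 6 complex III factors, 1 and 0. Of 5 complex V factors and regulators 1 and 1 were lower, and the ATPase inhibitor Atpif1 was at -0.65 (adjusted p = 0.0497 by edgeR) and -0.49 (adjusted p = 0.113). Of 16 enzymes of the tricarboxylic acid cycle, which feeds electrons into the chain, 4 and 4 were lower and 1 and 2 higher. Of 15 regulators of mitochondrial biogenesis 2 and 2 were lower, one of them Tfam (-0.65 and -0.64), which packages and transcribes mitochondrial DNA, whereas Nrf1 (0.35 and 0.40) was not called, and 8 and 9 of the 15 had positive values. The genotype comparisons called 0 genes of any of these lists at either age with edgeR.

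Markers of other cells were read beside these results. The summed level of 11 megakaryocyte and platelet genes ranged from 640 to 1002 CPM in young Ythdf2CTL and from 1156 to 3381 CPM in young Ythdf2CKO mice. Pf4 alone ranged from 296 to 635 and from 748 to 2753 CPM. Of the 11, edgeR called 2 higher and 0 lower, with 9 positive and 2 negative log2 fold changes. For 12 HSC genes the sum ranged from 1705 to 2101 and from 2219 to 2673 CPM. But 6 of the 12 had positive and 6 negative log2 fold changes, with a median of 0.01 and 1 called higher. In aged mice the platelet genes ranged from 490 to 725 CPM in Ythdf2CTL mice and from 1956 to 2355 CPM in 4 Ythdf2CKO mice, with 662 CPM in the mouse labelled 121. All 11 had positive log2 fold changes between the aged genotypes, and edgeR called 0 of them. Over both genotypes, 5 lymphoid genes summed to between 467.5 and 609 CPM in young and between 195 and 401 CPM in aged mice. Most of this sum was Nkg7, and Ms4a1 was at 0 in every mouse. Of the 3 lymphoid genes tested, edgeR called 1 lower with age in each genotype. The 20 genes of the cell cycle ranged from 4066 to 5111 CPM in young Ythdf2CTL and from 2754 to 4419 CPM in young Ythdf2CKO mice, with 20 of 20 negative log2 fold changes (median -0.21, 5 at an unadjusted p under 0.05 and 0 called by edgeR). They ranged from 2399 to 5092 and from 3518 to 4875 CPM in aged mice. With age, edgeR called 4 of the 20 lower and 0 higher in Ythdf2CTL, and 2 lower and 1 higher in Ythdf2CKO mice. Of the 12 HSC genes 2 were called higher and 0 lower with age in Ythdf2CTL, and 1 higher and 1 lower in Ythdf2CKO mice, and of the 11 platelet genes 1 and 3 were higher. The 9 erythroid genes summed to between 2455 and 3663 CPM in young and between 1912 and 3469 CPM in aged mice, with 0 and 1 of 4 tested lower, and the 12 granulocyte and monocyte genes to between 937 and 1253 and between 595 and 1307 CPM, with 0 and 0 of 7 called and 1 and 1 lower at an unadjusted p under 0.05. The part of these cells in the members' values was not tested.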

How the data were processed

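Reads were aligned to GRCm38 with HISAT2 and assigned to genes with Rsubread by the authors, who deposited raw counts per gene and library; the annotation, strand setting and treatment of reads with several positions are not given in the sources used here. Counts of the libraries A and B of a mouse were added. Library B of aged Ythdf2CTL mouse 99 was left out because of its total of 187034 counts, and 0 columns were left unmapped. Low genes were removed with filterByExpr of edgeR (at least 10 counts, total of at least 15), and the rest were scaled by TMM and tested over mice with the quasi-likelihood F test of edgeR 4.0.16 in R 4.3.3, two-sided, at a Benjamini-Hochberg adjusted p of 0.05 over all genes tested. Young and aged genotypes were fitted separately, and the interaction and the ages in 1 fit of 17 mice. Standard errors were the size of the log2 fold change over the root of F. The p-values of this test measure the spread between mice. A likelihood ratio test and a block by library letter, run as alternatives, took libraries as replicates, so that their p-values also hold the spread within a mouse and are too small. limma 3.58.1, DESeq2 1.42.0, other scalings and filters, single libraries, covariates and leaving out each mouse were alternatives. Scripts were tested on simulated data.

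The members and gene lists were chosen with earlier results of these data known. Named were up to 10 called members with the smallest p per direction and contrast, the member with the smallest p and those with the highest and lowest level per kb in each complex, the tissue isoforms and the catalytic subunits. Sequences shown and examples from the other lists were picked after their values were seen. Cox8b, Cox8c and Ndufa4l2 were not analysed here, and some named values are not reported here. Transcript length and GC were matched for 13070 of 13108 genes (GENCODE vM21), with the spliced transcript of each gene taken from that annotation.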

Additional observations from a re-analysis of the deposited data

Results flagged for a closer look

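Within groups of 4 or 5 mice, 46 member genes and 6 sums gave 208 sets of values, of which 10 held a mouse far from the others by Dixon's test; chance gives about 1 in 20. In aged Ythdf2CTL mice, Sdhd stood at 511 CPM in mouse 65 against 397 to 413 CPM in the other 3, and Atp5c1 at 379 CPM in mouse 99 against 478 to 496 CPM. The mouse labelled 124 in that group had 158 CPM of Ndufa5, against 93.3 to 104 CPM, and 169 CPM of Cox7a2l, against 97.1 to 105 CPM. In young Ythdf2CTL mice, Ndufs1 stood at 150 CPM in mouse 3 against 119 to 123 CPM. The other sets were of isoforms with few counts. Cox4i2 stood at 14.7 CPM in young Ythdf2CTL mouse 1, against 5.78 to 7.28 CPM, and at 8.0 CPM in young Ythdf2CKO mouse 3, against 4.17 to 4.68 CPM. Cox7a1 stood at 3.03 CPM in young Ythdf2CTL mouse 3, against 0.659 to 0.910 CPM. Cox6a2 stood at 0.220 CPM in young Ythdf2CTL mouse 1 and at 0.104 CPM in aged Ythdf2CTL mouse 65, each against 0 in the other 3 mice and each below the level of 3 counts.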

How the results depend on the processing

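Apart from leaving out mice, 0 members were called in 16 of 16 alternatives for young genotypes, 17 of 17 for aged genotypes and 15 of 15 for the interaction. Their median was less stable: for young genotypes it was -0.26 in the A libraries, 0.13 in the B libraries and -0.25 with a covariate for Y-linked reads. In the B libraries the median interaction was -0.27 and, in Ythdf2CTL mice, 1 member was lower with age (median -0.35, 0.349% of all genes). In the A libraries 16 were lower in Ythdf2CKO mice (5.09% of all genes). With length and GC corrected for, 2 and 0 members were lower in Ythdf2CTL and Ythdf2CKO mice (medians -0.14 and -0.12), with 1.14% and 1.72% of all genes. Leaving out 1 mouse gave between 19 and 58 lower members in Ythdf2CTL mice, with between 4.29% and 9.58% of all genes. In Ythdf2CKO mice it gave between 16 and 41, with between 5.67% and 8.87% of all genes. The medians of the members were between -0.78 and -0.49 and between -0.62 and -0.43. The cause of these shifts between libraries and mice was not tested. With library B of mouse 99 added, 43 and 31 members were lower (8.15% and 8.91% of all genes). With the young mouse number as a replicate block, 0 members were called (median -0.10), and 14 genes of the table against 20; with the library letter as a replicate block, 0 members were called in young (median -0.07) and aged mice (median -0.03). Same-numbered young mice correlated between -0.0572 and 0.109 in their deviations from the group means. Such values cannot show whether these mice share more than a number. Few counts limit what can be said of Cox4i2, Cox7a1, Ndufb4c and Cox6a2.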

Other observations

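The library left out of aged Ythdf2CTL mouse 99 held 409 counts of members, or 0.219% of its 187034 counts, spread over 54 members, against 1.94% in the other library of that mouse.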
